A study of Mus musculus with 12 samples.

Results

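Scavenger receptors and receptors for dying cells were examined in M1-activated bone marrow-derived macrophages (BM-Mɸs). The 10 genes were Msr1, Marco, Cd36, Scarb1, Scarb2, Olr1, Stab1, Mertk, Axl and Gas6. They were chosen by name for their roles and not by a cut on a measured value, but with earlier results of these data known. They are 10 of 22243 genes measured, and they hold 14 of 28808 transcripts, as Cd36 has 5 and each of the others has 1. RNA sequencing covered 12 cultures of C57Bl/6 BM-Mɸs from 6 litters, each of which gave 1 library labelled ErbB4myeKO (LysMCre with floxed Erbb4) and 1 labelled ErbB4FF (floxed Erbb4 without Cre). All mice carry the floxed allele, and LysMCre, which is expressed from the myeloid gene Lyz2, was in the ErbB4myeKO mice only. Bone marrow was grown in CMG14-12 conditioned medium, a source of the macrophage growth factor M-CSF, and every culture was M1-activated with IFN-γ (100 U/mL, 16 h) followed by LPS (100 ng/mL, 6 h), so no library shows unactivated cells. The labels give neither the age nor the sex of the mice, and their batch letter runs with the litter number, so litter, culture and batch cannot be told apart. The question here was whether macrophages without ErbB4, a receptor tyrosine kinase, carry different amounts of the RNAs for uptake receptors.

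Macrophages clear modified lipoproteins, bacteria and dying cells through receptors of unrelated structure that are grouped by what they bind. Class A receptors (Msr1, Marco) take up acetylated lipoproteins and microbes, class B receptors (Cd36, Scarb1, Scarb2) handle lipids, and Olr1 and Stab1 also bind oxidized lipoproteins. Mertk and Axl are receptor tyrosine kinases that recognise phosphatidylserine on dying cells through soluble bridging proteins, of which Gas6 is one.

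Values are TPM, the share of a library that a transcript takes once read numbers are scaled for transcript length. Ratios between littermates are on the log2(TPM + 0.5) scale, on which the change of a gene with a low level is understated. In RNA from whole cultures, fewer cells of a type and less RNA per cell cannot be told apart.

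The libraries expressed the macrophage genes that their label names: Adgre1 lay between 662 and 1060 TPM, Csf1r between 168 and 473 TPM and Cd68 between 314 and 571 TPM, and all 10 macrophage markers passed the filter of a mean of at least 1 TPM. The 10 lymphocyte markers summed to 0.245 to 2.65 TPM and the 8 erythroid markers to 0 to 0.981 TPM, and no gene of either list passed the filter. The 12 neutrophil markers summed to 64.4 to 163 TPM in litters 1 to 4 and to 200 to 418 TPM in litters 5 and 6, with S100a8 as high as 253 TPM but Elane, Mpo and Ly6g no higher than 0.377, 0.549 and 0.448 TPM and Retnlg at 0. The 10 dendritic cell markers summed to 31.2 to 122 TPM with Cd209a and Siglech at 0, and the 12 stromal and endothelial markers to 15.5 to 113 TPM with Col1a1 between 1.09 and 38.6 TPM. Litters 5 and 6 stood apart in another way: the Y-linked gene Eif2s3y lay between 23.1 and 32.4 TPM in the 8 libraries of litters 1 to 4 and was listed at 0 in the 4 libraries of litters 5 and 6. The deposited transcripts held 71.4% and 74.7% of all TPM in the litter 5 libraries and 59.0% to 64.9% in the other libraries. Erbb4 itself was measured at 0.583 ± 0.242 TPM (SD, n = 6) with the label ErbB4myeKO and at 0.450 ± 0.132 TPM (SD, n = 6) with the label ErbB4FF, below the filter. As the table holds whole transcripts it does not show whether the floxed exon was removed. Lyz2 was lower in the library labelled ErbB4myeKO in litters 1 to 5 but higher in litter 6 (7997 TPM against 2964 TPM), so values of the members, and of other genes at an unadjusted p under 0.05 for genotype, are given below with and without litter 6.

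Upstream sequence was shown for Marco and Mertk, the genes whose levels separated litters 5 and 6 from the others, and for Olr1, the member with the lowest level. RefSeq on GRCm38.p6 gave upstream windows for 8 of the 10 genes. The 250 bases that end just before the start site lie at chr1:120505025-120505274 on the minus strand for Marco, at chr2:128698665-128698914 on the plus strand for Mertk and at chr6:129507166-129507415 on the minus strand for Olr1. They are written 5′ to 3′ along the gene, and capitals mark letters that match 1 of 6 motifs searched on both strands.
Marco: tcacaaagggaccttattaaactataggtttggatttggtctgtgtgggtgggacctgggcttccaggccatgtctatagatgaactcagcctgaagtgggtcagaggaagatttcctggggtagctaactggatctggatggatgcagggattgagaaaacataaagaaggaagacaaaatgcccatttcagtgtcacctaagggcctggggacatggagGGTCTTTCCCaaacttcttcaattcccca
Mertk: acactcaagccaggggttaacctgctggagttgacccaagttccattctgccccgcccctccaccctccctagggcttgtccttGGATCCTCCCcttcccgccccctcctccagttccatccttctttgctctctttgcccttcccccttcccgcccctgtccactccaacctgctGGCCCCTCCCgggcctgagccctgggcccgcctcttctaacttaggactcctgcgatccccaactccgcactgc
Olr1: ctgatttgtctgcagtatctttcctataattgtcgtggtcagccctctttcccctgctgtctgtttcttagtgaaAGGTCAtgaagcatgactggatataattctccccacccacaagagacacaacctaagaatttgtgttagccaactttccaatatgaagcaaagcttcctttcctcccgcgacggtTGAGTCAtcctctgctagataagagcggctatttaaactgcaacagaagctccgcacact
The Marco window held 1 match to the NF-κB pattern (GGGA and CC with any 4 bases between them), on the opposite strand and 29 bases before the start, and the Mertk window held 2 on the opposite strand, 166 and 74 bases before the start. That pattern occurs in 17.6% of the 32851 upstream windows of this length in the mouse annotation. The Olr1 window held an AP-1 pattern TGANTCA 60 bases before the start, found in 6.75% of all windows, and a nuclear receptor half-site AGGTCA 175 bases before it, found in 14% of all windows. Cd36 and Axl each held 1 match to the NF-κB pattern as well, 203 and 81 bases before the start, and Cd36 an AGGTCA match on the opposite strand 228 bases before it. The interferon patterns TTCNNNGAA (7.02% of all windows) and GAAA repeated after any 2 bases (2.98%) and the PU.1 pattern GAGGAAGT (2.44%) had no match in any of the 8 windows. A match of letters is a description and not evidence of a site that is used.

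In libraries labelled ErbB4FF, the members covered a wide range of levels per transcript length, from Cd36 at 317 ± 115 TPM to Olr1 at 2.39 ± 1.66 TPM (SD, n = 6). Cd36 was followed by Marco (192 ± 202 TPM), Axl (183 ± 62.6 TPM), Msr1 (127 ± 47.7 TPM) and Mertk (113 ± 56.7 TPM), and these 5 receptors formed the upper part of the order. The place of Marco rests on the mean: its median of 77.7 TPM was below those of Axl (163 TPM), Mertk (139 TPM) and Msr1 (126 TPM), and it was above Axl in 2 of 6 libraries. Scarb2 (29.8 ± 4.06 TPM), Stab1 (13.03 ± 8.05 TPM), Scarb1 (10.8 ± 3.13 TPM) and Gas6 (6.80 ± 3.03 TPM) made up the lower part. Of the 9 steps between neighbours in this order, Mertk above Scarb2 and Scarb2 above Stab1 held in 6 of 6 libraries (exact two-sided permutation p = 0.0312 for each, the smallest that 6 libraries allow). Adjusted over the 18 steps of both groups these exact permutation p-values became 0.141, and the other steps had unadjusted exact p between 0.0625 and 1. In libraries labelled ErbB4myeKO the order was the same except that Mertk (122 ± 58.0 TPM) stood above Msr1 (112 ± 43.5 TPM), a pair that did not differ beyond its spread there (higher in 3 of 6 libraries, exact permutation p = 0.969).

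**Figure D1:**
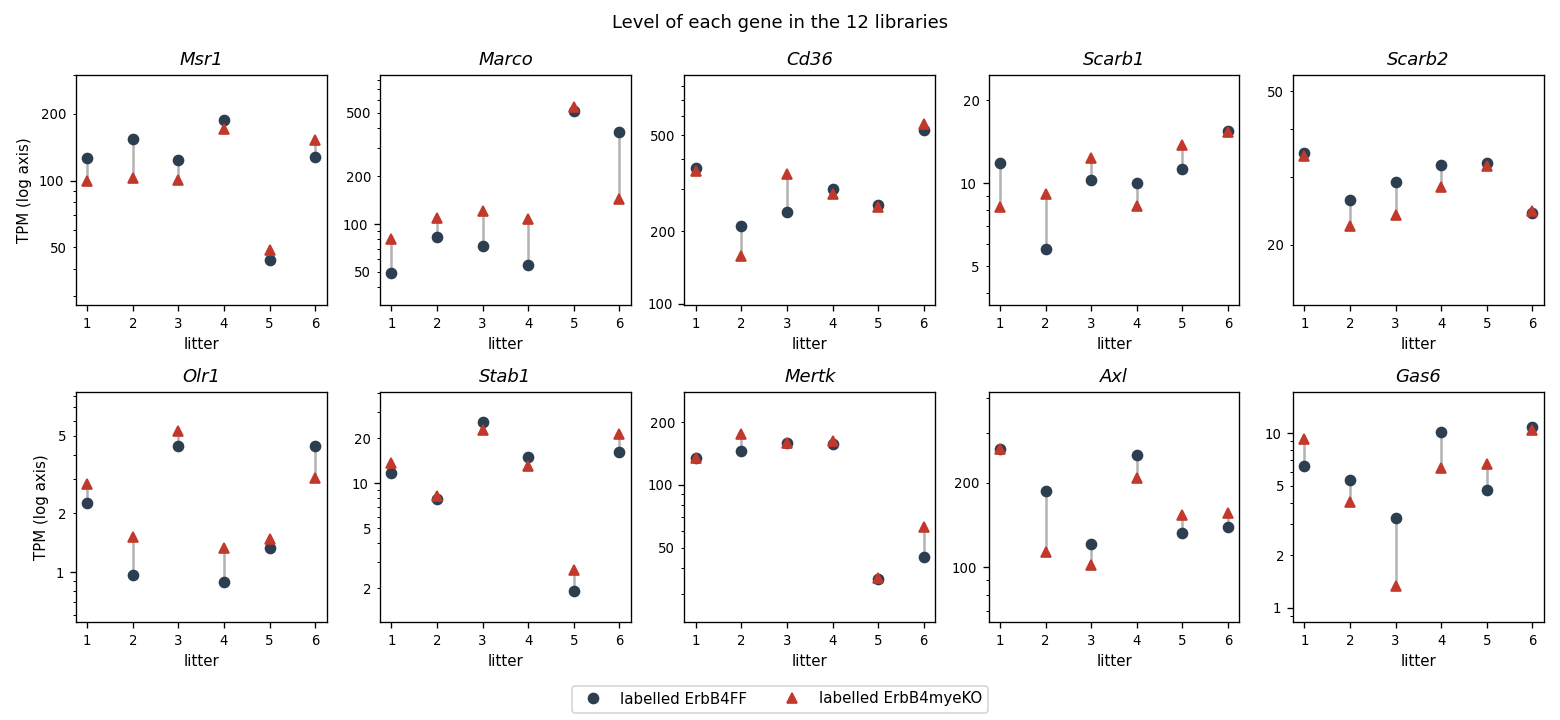
Level of each of the 10 genes in TPM (log axis) against litter number, with circles for libraries labelled ErbB4FF and triangles for those labelled ErbB4myeKO. Littermates lie close together for most genes, while litters differ, as for Stab1, which is lowest in litter 5 (1.90 and 2.64 TPM) and highest in litter 3 (25.6 and 22.6 TPM).

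The litter that a culture came from went with far larger differences in these genes than the genotype label did. Of the 10 members, 9 passed the F-test for litter in limma at an adjusted p under 0.05, where 44.9% of the 8780 genes tested did. Mertk (adjusted p = 0.000306 in limma) and Stab1 (adjusted p = 0.000399 in limma) had the smallest values, and Scarb1 was the 1 member not called (adjusted p = 0.0945 in limma). Without litters 5 and 6, a choice made after seeing the data, no member passed and 0.222% of genes did. That fit keeps 8 libraries, and the members' unadjusted p in its F-test ran from 0.00110 (Stab1) to 0.351 (Scarb1). The loss of calls thus does not show that litters 1 to 4 are alike. With litter 5 alone left out, 6 members passed against 11.5% of all genes, and with litter 6 alone left out 6 passed against 38.9%. Axl, Mertk, Olr1 and Stab1 passed in both of these fits, Marco and Msr1 only in the fit that kept litter 5, and Cd36 and Gas6 only in the fit that kept litter 6, while Scarb2 passed in neither. With a covariate from Y-linked genes, 4 members passed against 9.53% of all genes. Y-linked levels set whole litters apart, which the litter block already takes, so this covariate does not adjust genotype for sex.

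Marco and Mertk were the members whose levels did not overlap between litters 5 and 6 and litters 1 to 4, where 16.7% of all genes tested were separated in that way. Mertk lay between 134 and 175 TPM in the 8 libraries of litters 1 to 4, between 45.4 and 63.1 TPM in litter 6 and between 35.4 and 36.0 TPM in litter 5. Marco went the other way, with 49.6 to 120 TPM in litters 1 to 4, 143 and 379 TPM in litter 6 and 514 and 541 TPM in litter 5. The sum of the neutrophil markers and the Y-linked genes Ddx3y, Eif2s3y and Kdm5d separated the same libraries, while Uty did not. Their part in these levels was not tested. The other 8 members overlapped between these sets of litters.

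**Figure D2:**
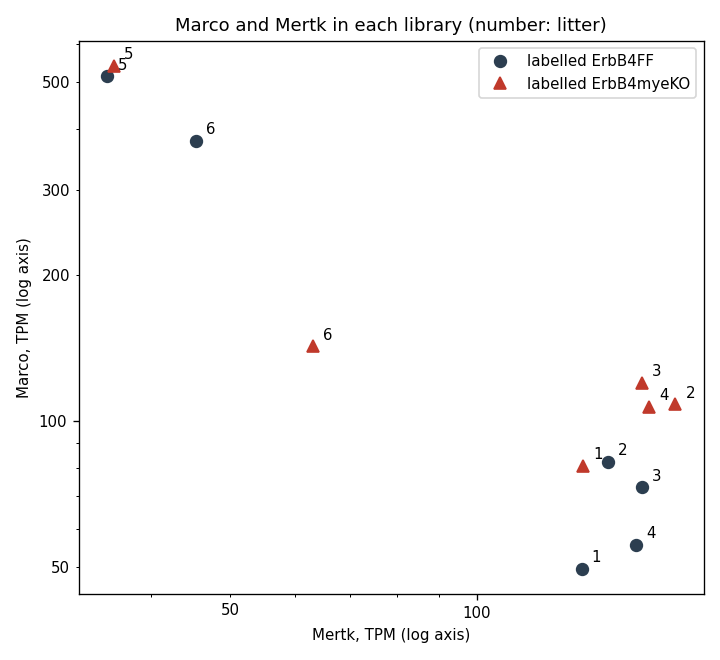
Marco against Mertk in each library, in TPM on log axes, with the litter number beside each point, circles for the label ErbB4FF and triangles for ErbB4myeKO. The 8 libraries of litters 1 to 4 lie at 134 to 175 TPM of Mertk and 49.6 to 120 TPM of Marco, and the 4 libraries of litters 5 and 6 lie at lower Mertk and higher Marco.

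Stab1 differed most between litters, 10.6-fold between the mean of its highest litter (litter 3, 24.1 TPM) and that of its lowest (litter 5, 2.27 TPM). Marco followed with 8.08-fold (litter 5 over litter 1), Gas6 with 4.61-fold (litter 6 over litter 3), Mertk with 4.47-fold (litter 2 over litter 5), Olr1 with 4.39-fold (litter 3 over litter 4) and Msr1 with 3.88-fold (litter 4 over litter 5). Cd36 spanned 2.93-fold, Axl 2.36-fold, Scarb1 2.06-fold and Scarb2, a receptor of the lysosomal membrane that sorts glucocerebrosidase, 1.41-fold. Msr1 was separated in litter 5 from every other library (43.8 and 48.5 TPM against 99.8 to 188 TPM), as was Stab1 (1.90 and 2.64 TPM against 7.86 to 25.6 TPM). With Marco and Mertk, 4 of the 10 members were separated in litter 5, a share close to the 40.1% of all genes tested that were. The litter with the lowest Gas6, litter 3, held the 2 libraries with the lowest sums of stromal and endothelial markers (15.5 and 27.4 TPM). The highest sums were in litter 1 (113 and 106 TPM), where Gas6 averaged 7.86 TPM. Gas6 was highest in litter 6 (10.6 TPM), with sums of 79.1 and 49.0 TPM. The part of these markers in the level of Gas6 was not tested. As a description, litter took a median of 89.7% of the sum of squares of the members' log2 values and the genotype label 1.24%, beside 78.1% and 2.49% over all genes tested, where litter holds 5 of the 11 degrees of freedom.

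**Figure D3:**
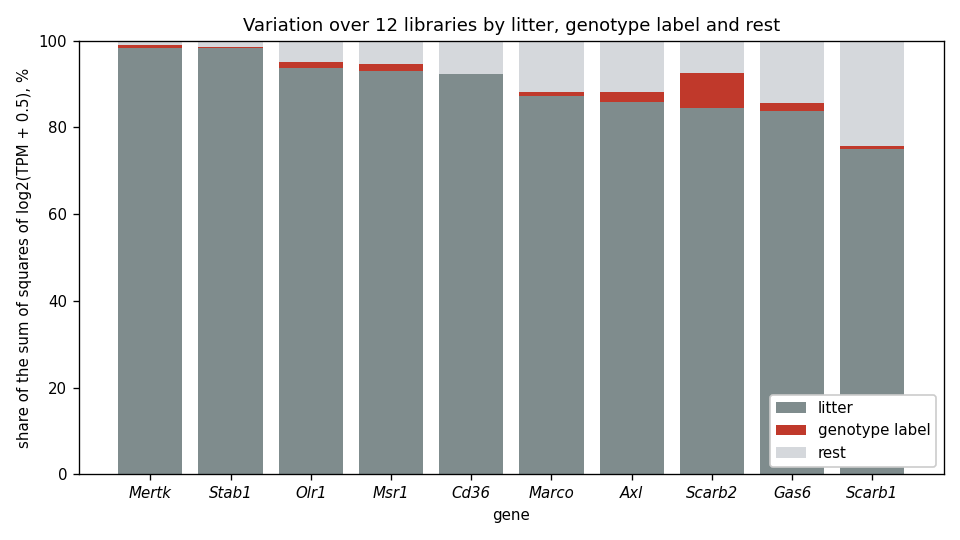
Share (%) of the sum of squares of log2(TPM + 0.5) over the 12 libraries that goes with litter, with the genotype label and with neither, for each of the 10 genes as stacked bars. Litter takes between 74.98% (Scarb1) and 98.4% (Mertk), and the genotype label takes at most 8.03% (Scarb2).

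Between genotype labels, none of the 10 members passed the test, and the groups overlapped for all 10. In limma with litter as a block, the mean of the log2 values was higher for 6 members and lower for 4 in libraries labelled ErbB4myeKO, none at an unadjusted p under 0.05 (smallest 0.126), where 8.21% of the 8780 genes tested had one. Adjusted p-values of the members in limma were between 0.641 and 0.983, and 0% of all genes had an adjusted p under 0.05. The median log2 fold change of the members was 0.03 and their median standard error 0.12, beside -0.00 and 0.14 over all genes tested. Complete separation of the groups was also rare elsewhere, at 0.0456% of genes tested.

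**Figure D4:**
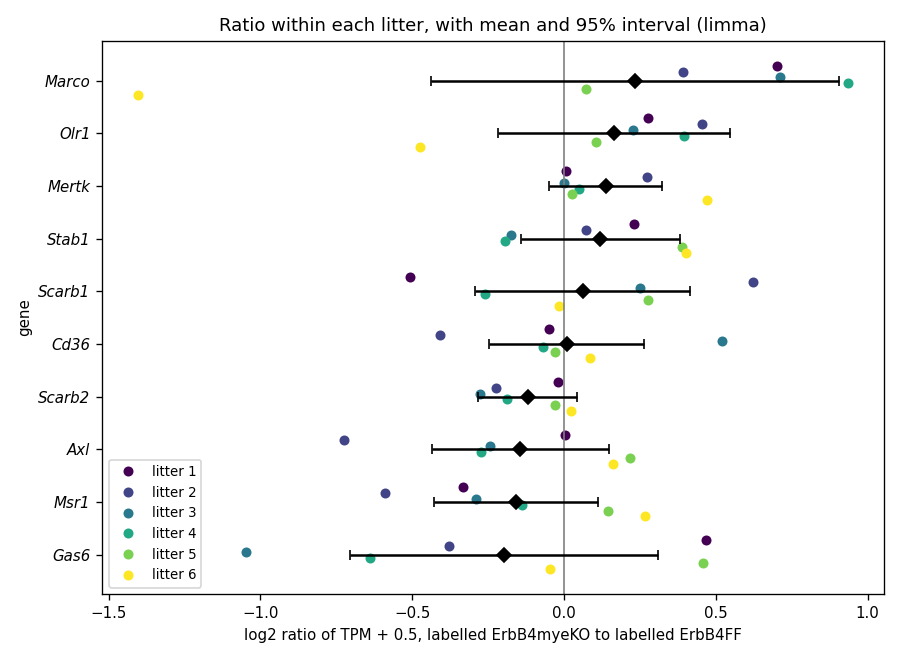
Log2 ratio of TPM + 0.5, labelled ErbB4myeKO over labelled ErbB4FF, within each litter (points, coloured by litter) for the 10 genes, with the limma estimate and its 95% interval. All 10 intervals include 0, and the largest departure of a single litter is Marco in litter 6 (-1.40).

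Among class A receptors, Msr1 (ENSMUSG00000025044, chr8:39581685-39642673, GRCm38), which binds acetylated lipoproteins, was measured at 48.5 to 170 TPM (median 102) with the label ErbB4myeKO and at 43.8 to 188 TPM (median 126) with the label ErbB4FF. It was lower in litters 1 to 4 and higher in litters 5 and 6, and its log2 ratio averaged -0.16 ± 0.32 (SD over 6 litters, exact permutation p = 0.281). The limma estimate was -0.16 (SE 0.12, 95% interval -0.43 to 0.11, adjusted p = 0.690), and it was -0.24 without litter 6 (limma, adjusted p = 0.767) and -0.070 without litter 2 (limma, unadjusted p = 0.533). Without litters 5 and 6, which leaves the litters in which it was lower, the estimate was -0.34 (limma, unadjusted p = 0.0148, adjusted p = 0.626), in a fit where 7.36% of all genes had an unadjusted p under 0.05. With the Y-linked covariate, which beside the litter block does not adjust for sex, it was -0.23 (limma, unadjusted p = 0.0334, adjusted p = 0.652). In that fit 7.44% of all genes had an unadjusted p under 0.05.

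Marco (ENSMUSG00000026390, chr1:120474538-120505024, GRCm38), a receptor for bacteria and particles, was measured at 81.0 to 541 TPM (median 114) with the label ErbB4myeKO and at 49.6 to 514 TPM (median 77.7) with the label ErbB4FF. Its mean TPM was lower with the label ErbB4myeKO (183 ± 176 TPM against 192 ± 202 TPM, SD, n = 6), while the mean of its log2 values was higher. The log2 ratios of litters 1 to 6 were 0.70, 0.39, 0.71, 0.94, 0.07 and -1.40, so Marco was higher in 5 of 6 litters and 142.8 TPM against 378.7 TPM in the last. The mean was 0.24 ± 0.86 (SD, n = 6 litters, exact permutation p = 0.531), and the limma estimate 0.24 (SE 0.29, 95% interval -0.44 to 0.91, adjusted p = 0.813). The value depended on single litters: it was 0.095 without litter 4, 0.14 without litter 1 or without litter 3, and 0.69 without litters 5 and 6 (limma, unadjusted p = 0.00101, adjusted p = 0.626). With the Y-linked covariate it was 0.44 (SE 0.20, limma, unadjusted p = 0.0656). Without litter 6 it was 0.56 (SE 0.13, limma, unadjusted p = 0.00411, adjusted p = 0.767), higher in each of the other 5 litters (p = 0.0625 by exact permutation, the lowest value possible with 5 litters). An unadjusted p under 0.05 was found for 5.82% of all genes in that fit. Litter 6 is also the litter in which Lyz2 and Olr1 changed direction against the other litters.

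Of class B receptors, Cd36 (ENSMUSG00000002944, chr5:17781690-17888801, GRCm38), a fatty acid transporter that also binds oxidized lipoproteins and dying cells, was measured at 158 to 557 TPM (median 316) with the label ErbB4myeKO and at 210 to 524 TPM (median 279) with the label ErbB4FF. Its litter ratios lay between -0.41 (litter 2) and 0.52 (litter 3), and the limma estimate was 0.01 (SE 0.11, 95% interval -0.25 to 0.26, adjusted p = 0.983) and -0.01 without litter 6. Of its 5 transcripts, ENSMUST00000169095 held 53.2% and ENSMUST00000197890 39.8% of the gene's mean TPM, and ENSMUST00000082367 was listed at 0 in 11 of 12 libraries. No member transcript had an unadjusted p under 0.05 in limma, where 6.72% of transcripts tested had one.

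Scarb1 (ENSMUSG00000037936, chr5:125277087-125341094, GRCm38), the HDL receptor, was measured at 8.18 to 15.2 TPM (median 10.7) with the label ErbB4myeKO and at 5.77 to 15.4 TPM (median 10.8) with the label ErbB4FF. It was higher in 3 of 6 litters, with ratios between -0.51 (litter 1) and 0.62 (litter 2), and a limma estimate of 0.06 (SE 0.15, adjusted p = 0.909) that was 0.08 without litter 6. It was 0.17 without litter 1, 0.02 without litter 3 or without litter 5, and -0.05 without litter 2. Scarb2 (ENSMUSG00000029426, chr5:92441314-92506833, GRCm38) was measured at 22.3 to 34.1 TPM (median 26.4) and at 24.1 to 34.5 TPM (median 30.7). Scarb2 had the narrowest spread of ratios of the 10 members, -0.12 ± 0.13 (SD, n = 6 litters, exact permutation p = 0.0938), lower in 5 of 6 litters, with a limma estimate of -0.12 (SE 0.07, 95% interval -0.28 to 0.04, adjusted p = 0.644). It was -0.15 without litter 6 (limma, unadjusted p = 0.107, adjusted p = 0.767). When the libraries were rescaled by median ratios, Scarb2 was lower in 6 of 6 litters (-0.13, exact permutation p = 0.0312), a direction that 2.31% of all genes had in 6 of 6 litters before rescaling. Rescaled to the sum of the table it was lower in 4 of 6 litters (-0.10, exact permutation p = 0.219).

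Olr1 (ENSMUSG00000030162, chr6:129485244-129507165, GRCm38), the lectin-like receptor LOX-1 for oxidized LDL, was the member with the lowest level, at 1.32 to 5.28 TPM (median 2.18) with the label ErbB4myeKO and at 0.888 to 4.44 TPM (median 1.80) with the label ErbB4FF. It was higher in litters 1 to 5 and lower in litter 6, with a limma estimate of 0.16 (SE 0.16, 95% interval -0.22 to 0.55, adjusted p = 0.761) and of 0.29 without litter 6 (limma, adjusted p = 0.767). It was 0.11 without litter 2 and 0.34 without litters 5 and 6. Stab1 (ENSMUSG00000042286, chr14:31139013-31168641, GRCm38), an endocytic receptor also found on sinusoidal endothelium, was measured at 2.64 to 22.6 TPM (median 13.4) and at 1.90 to 25.6 TPM (median 13.4). It was higher in 4 of 6 litters, with an estimate of 0.12 (SE 0.11, limma, adjusted p = 0.745), which was 0.06 without litter 6, 0.07 without litter 5, 0.18 without litter 4 and -0.02 without litters 5 and 6.

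Of the receptor tyrosine kinases, Mertk (ENSMUSG00000014361, chr2:128698956-128802894, GRCm38), which drives the engulfment of apoptotic cells, was measured at 36.0 to 175 TPM (median 147) with the label ErbB4myeKO and at 35.4 to 159 TPM (median 139) with the label ErbB4FF. It was the 1 member on the same side in 6 of 6 litters, higher in each, where 2.51% of all genes were higher in 6 of 6 litters and 4.82% went 1 way in 6 of 6. Its log2 ratio averaged 0.14 ± 0.19 (SD over 6 litters), which with all signs alike gives the smallest p that an exact permutation over 6 litters allows (0.0312), while limma gave 0.14 (SE 0.08, 95% interval -0.05 to 0.32, unadjusted p = 0.126, adjusted p = 0.641). The differences were small in most litters: 134.9 TPM against 134.3 TPM in litter 1, 159.2 TPM against 159.1 TPM in litter 3, and a log2 ratio of 0.47 in litter 6. Rescaling by median ratios left Mertk higher in 4 of 6 litters (exact permutation p = 0.125). Rescaling to the sum of the table left it higher in 6 of 6. Without litter 6 the estimate was 0.07 (SE 0.07, limma, adjusted p = 0.823).

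Axl (ENSMUSG00000002602, chr7:25757273-25788705, GRCm38), the related kinase that inflammatory stimuli induce in macrophages, was measured at 102 to 264 TPM (median 155) with the label ErbB4myeKO and at 121 to 263 TPM (median 163) with the label ErbB4FF. Its littermates were nearly equal in litter 1 (263.9 TPM against 263.4 TPM), it was lower in litters 2 to 4 and higher in litters 5 and 6. The limma estimate was -0.14 (SE 0.12, 95% interval -0.43 to 0.15, adjusted p = 0.728), and -0.03 without litter 2, in which 113 TPM stood against 187 TPM. Without litter 6 it was -0.20 (limma, adjusted p = 0.782). Without litters 5 and 6 it was -0.31 (limma, unadjusted p = 0.0581). Gas6 (ENSMUSG00000031451, chr8:13465374-13494490, GRCm38), the ligand that bridges both kinases to phosphatidylserine, was measured at 1.33 to 10.4 TPM (median 6.48) and at 3.28 to 10.8 TPM (median 5.94). Its litter ratios ran from -1.05 (litter 3) to 0.47 (litter 1), with a limma estimate of -0.20 (SE 0.22, adjusted p = 0.784). It was -0.23 without litter 6, -0.028 without litter 3, -0.33 without litter 1 or without litter 5, and -0.40 without litters 5 and 6.

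The within-litter log2 ratios were compared for 6 pairs of members related by role, and no correlation passed the test. Gas6 and Axl had r = 0.59 (exact permutation p = 0.224) and rho = 0.60 (exact permutation p = 0.242), with the same sign in 5 of 6 litters and r = 0.72 without litters 1 and 3. Msr1 and Marco had r = -0.69 (exact permutation p = 0.119) and rho = -0.43 (exact permutation p = 0.419), with r = -0.77 without litters 2 and 6. Axl and Mertk had r = -0.03 (exact permutation p = 0.917) and rho = -0.09 (exact permutation p = 0.919), but r = 0.77 without litters 2 and 5, so the value rests on those litters. Gas6 and Mertk, Cd36 and Scarb1, and Scarb1 and Scarb2 had r of 0.03, -0.15 and -0.46, rho of 0.09, -0.09 and -0.49, exact permutation p of 0.951, 0.828 and 0.339 for r and of 0.919, 0.919 and 0.356 for rho, and r of -0.07, 0.36 and -0.00 without the 2 litters farthest from the median. Adjusted over the 6 pairs, the smallest exact permutation p was 0.671 for r and 0.839 for rho.

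For each member, the gene with the most similar pattern of log2(TPM + 0.5) over the 12 libraries was also found, as a description over libraries that share litters and fall apart by litters 5 and 6. Mertk was most like Braf (r = 0.988, rho = 0.958), Stab1 like Luzp1 (r = 0.965, rho = 0.902), Msr1 like Tmem127 (r = 0.964, rho = 0.853) and Olr1 like Gclm (r = 0.961, rho = 0.986). Marco was most like Akt1s1 (r = 0.955, rho = 0.972), Gas6 like Pdlim2 (r = 0.944, rho = 0.944), Axl like Ccdc6 (r = 0.941, rho = 0.944) and Cd36 like Gca (r = 0.926, rho = 0.895). Scarb2 was most like Tagln2 (r = 0.901, rho = 0.888) and Scarb1 like Fam114a1 (r = 0.883, rho = 0.902).

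The rest of the uptake pathway was followed through 7 lists of 86 genes, from receptors to the handling of the cargo, of which 66 passed the filter. Of these, 31 had a higher and 35 a lower mean of log2 values in libraries labelled ErbB4myeKO, with a median log2 fold change of -0.02. At an unadjusted p under 0.05 in limma, 3 were higher and 4 lower, 10.6% of those tested beside 8.21% over all genes (3.83% higher and 4.38% lower), and none had an adjusted p under 0.05 (smallest 0.603 over all genes tested). Litter was called for 40 of the 66 (60.6%), beside 44.9% of all genes tested. Genes at an unadjusted p under 0.05 that are named below and are not among the 2 highest and 2 lowest of their list were chosen after their values were seen.

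Of 17 other scavenger receptors, 8 were tested, with 5 higher, 3 lower and a median of 0.11. Clec7a, which encodes the β-glucan receptor Dectin-1, was among the highest (0.22). The mannose receptor Mrc1 (-0.47) and Scarf1 (-0.16) had the lowest estimates. None of these 3 had an unadjusted p under 0.05.

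Of 18 further receptors and bridging proteins for phosphatidylserine and dying cells, 13 were tested, with 7 higher, 6 lower and a median of 0.01. Mfge8, a bridging protein, and Havcr2, which encodes the phosphatidylserine receptor TIM-3, had the highest estimates (0.58 and 0.54), and Cd300lb and the complement gene C1qa the lowest (both -0.26), none at an unadjusted p under 0.05. Itgav, the integrin αV that Mfge8 binds, was at 0.30 (SE 0.11, limma, unadjusted p = 0.0224), and at 0.26 without litter 6 (limma, unadjusted p = 0.0662). Of 9 genes for find-me and don't-eat-me signals, 7 were tested, with 4 higher and 3 lower and none at an unadjusted p under 0.05. Cd47, which restrains engulfment, was at 0.27 and S1pr1 at 0.22, and P2ry6 and Pirb at -0.18 and -0.13.

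The engulfment machinery inside the cell was the list with the most uneven split, and it was singled out after the counts were seen. Of its 13 genes 10 were tested, with 1 higher and 9 lower, a median of -0.14 and 2 lower at an unadjusted p under 0.05. These were Elmo1, a part of the exchange factor that activates Rac (-0.29, SE 0.12, limma, unadjusted p = 0.0474), and Rac2, a haematopoietic Rac GTPase (-0.21, SE 0.08, limma, unadjusted p = 0.0354). Elmo1 was at 25.9 ± 6.09 TPM against 31.99 ± 7.53 TPM (SD, n = 6), lower in 6 of 6 litters (exact permutation p = 0.0312). Without litter 6, Elmo1 was at -0.22 (limma, unadjusted p = 0.134) and Rac2 at -0.15 (limma, unadjusted p = 0.101). The list also had 0 genes at an unadjusted p under 0.05 without litter 2, without litters 5 and 6 or with the Y-linked covariate. The same held without trend, without the litter block and rescaled to the sum of the table. Across these fits the estimate lay between -0.29 and -0.20 for Elmo1 and between -0.21 and -0.17 for Rac2. Vav1 had the lowest estimate (-0.51) and the adaptor genes Crkl (0.09) and Crk (-0.01) the highest, none at an unadjusted p under 0.05.

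For the handling of engulfed lipid, all 13 genes were tested, with 7 higher, 6 lower and a median of 0.00. Fabp4 (0.40) and the lysosomal lipase gene Lipa (0.15) had the highest and the cholesterol exporter genes Abcg1 (-0.63) and Abca1 (-0.28) the lowest estimates, none at an unadjusted p under 0.05. Plin2, which coats lipid droplets, was at -0.26 (SE 0.10, limma, unadjusted p = 0.0390), and at -0.26 without litter 6 (limma, unadjusted p = 0.0771). Of 12 nuclear receptors and transcription factors of uptake genes, 11 were tested, with 5 higher and 6 lower: Rxrb (0.69) and Tfeb (0.42) were highest, Nr1h3, which encodes LXRα, (-0.37) and Maf (-0.34, SE 0.13, limma, unadjusted p = 0.0325) lowest. All 4 genes of receptor shedding were tested. Adam17, the protease that sheds MerTK, was at 0.16 (SE 0.06, limma, unadjusted p = 0.0325), Adam10 at 0.10, Rhbdf2 at -0.04 and Adam9 at -0.53. Without litter 6, Maf was at -0.29 (limma, unadjusted p = 0.0909) and Adam17 at 0.17 (limma, unadjusted p = 0.0574).

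**Figure D5:**
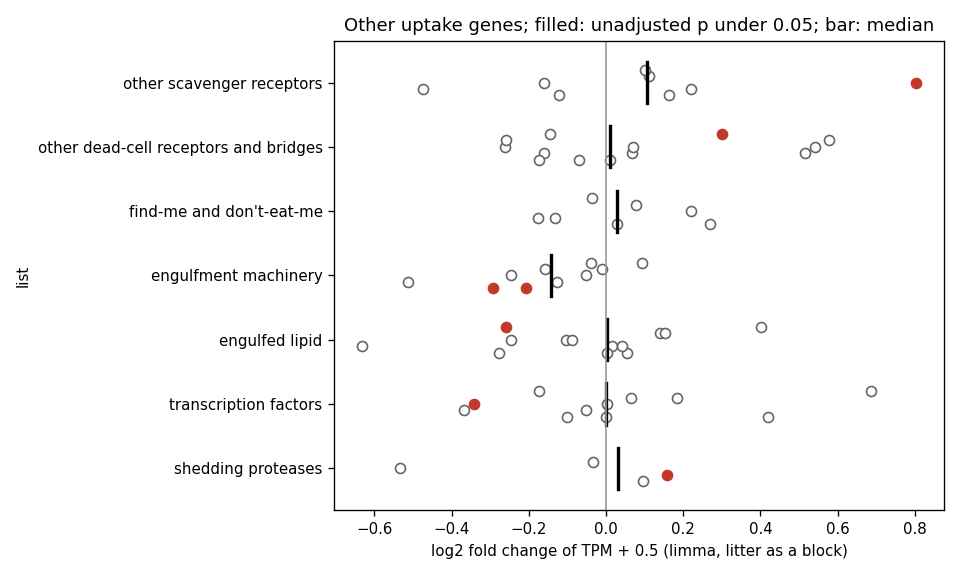
Log2 fold change of TPM + 0.5 from limma with litter as a block, for each tested gene (points, filled at an unadjusted p under 0.05) of the 7 uptake lists, with a bar at the median of each list. Medians lie between -0.14 (engulfment machinery, 9 of 10 genes lower) and 0.11 (other scavenger receptors). Of all 8780 genes tested, 4408 were lower.

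Marker lists were counted in the same fit, where 8.21% of all genes tested had an unadjusted p under 0.05. Of 10 macrophage markers 7 were lower (median -0.16) and 3 higher, Adgre1 (0.01), Csf1r (0.05) and Cd14 (0.16). Aif1 and Fcgr1 were lower at an unadjusted p under 0.05 in limma. Of 12 markers of activation by IFN-γ and LPS 7 were higher and 5 lower (median 0.17), with Il12b and Ptgs2 higher and Cxcl10 lower at that threshold. The macrophage markers summed to 9421 to 13686 TPM with the label ErbB4myeKO (median 11458) and to 8724 to 17940 TPM with the label ErbB4FF (median 15417). Lyz2, from which LysMCre is expressed, is 1 of them and made up a large part of these sums. Its medians were 4443 TPM with the label ErbB4myeKO and 8097 TPM with the label ErbB4FF, so the sums do not show a difference in the other markers. Of 6 neutrophil markers tested 3 were higher and 3 lower (median -0.07), and of 4 dendritic cell markers 3 were higher and 1 lower (median 0.21). Of 7 stromal and endothelial markers 5 were higher and 2 lower (median 0.07). At an unadjusted p under 0.05 in limma, Camp and Xcr1 of these lists were higher and Clec10a and Pecam1 lower. Without litter 6, Fcgr1 and Camp kept an unadjusted p under 0.05 in limma (0.0210 and 0.0470). Aif1 (0.0592), Il12b (0.0543), Ptgs2 (0.0634), Cxcl10 (0.0611), Xcr1 (0.0605) and Clec10a (0.0585) did not. Estimates there were 1.27 for Il12b (1.19 with all litters), 0.61 for Ptgs2 (0.60), 0.62 for Xcr1 (0.63) and -1.78 for Clec10a (-1.69). Those of Aif1 (-0.27, from -0.38) and Cxcl10 (-0.13, from -0.18) were nearer 0. Pecam1 was below the filter there. The activation and dendritic cell lists had 0 genes at an unadjusted p under 0.05 without litter 4 as well. Estimates there were 0.95 (Il12b), 0.51 (Ptgs2), -0.18 (Cxcl10), 0.45 (Xcr1) and -1.45 (Clec10a). The part of the marker genes in the values of the uptake genes was not tested.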

How the data were processed

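RNA sequencing covered 12 libraries of M1-activated BM-Mɸs, 6 labelled ErbB4myeKO and 6 labelled ErbB4FF, grouped by the genotype on their labels and paired by the litter number in their titles. Per the labels, stranded mRNA libraries gave single-end reads of 75 bp. The authors pseudoaligned reads with kallisto and deposited TPM for principal transcripts in the APPRIS annotation. The submitters' processing notes name CASAVA, kallisto, sleuth and mm10, and versions are not given in the sources used here. The authors' own comparison (p-values, q-values and fold changes from sleuth) was not used. Depth is not in the table, so precision rests on the spread between litters. Libraries held 10214 to 12985 genes above 0 TPM.

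The 405 repeated lines of 29213 were counted once, TPM were summed per gene, and genes averaging 1 TPM or more (8780) were kept. limma 3.58.1 (lmFit and a trended eBayes, R 4.3.3) was run on log2(TPM + 0.5) with genotype and a litter block. The threshold was a Benjamini-Hochberg adjusted p under 0.05 over all genes tested. A two-sided exact permutation test for single genes used the 64 swaps of genotype within litters, and litter by the F-test of the same fit. Littermates come from the same litter, and their log2 deviations correlated at 0.273 to 0.774 in the 6 litters, beside -0.516 to 0.379 between libraries of different litters. Positions come from GENCODE M21 (GRCm38) and upstream windows from RefSeq (GRCm38.p6). The fit was tested on simulated data. Other steps ran in Python 3.11.15 (matplotlib 3.10.9, numpy 2.4.6, scipy 1.17.1, pandas 2.3.3).

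The members and the lists, which were written by hand, were chosen with earlier results of these data known. Named genes are the 10 members, the 2 highest and 2 lowest of each uptake list, the gene most like each member, and Erbb4 and Lyz2 as checks of the labels. A result that this rule selects is not reported here. Alternatives were no block, pseudocounts of 0.1 and 1, a minimum mean of 5 TPM, no filter, limma without trend and median-ratio rescaling. Others were a Y-linked covariate, the most abundant transcript alone, and each litter left out. The covariate was added to the litter block, so it does not stand in for sex. Rescaling to the sum of the table and leaving out litters 5 and 6 were added after seeing the data.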

Additional observations from a re-analysis of the deposited data

Results flagged for a closer look

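In 30 groups of 6 values (each member in each group of libraries, and its 6 litter ratios), the highest and the lowest value were compared with the nearest of the others, a check that chance trips in about 1 of 20 groups, and 2 values stood apart, both of Marco. The library of litter 5 labelled ErbB4myeKO held 540.5 TPM of Marco, and its gap to the next library took 0.866 of the range of that group, above the critical value for 6 samples. Its littermate labelled ErbB4FF held 514.1 TPM, so the ratio of that litter was not unusual. The log2 ratio of Marco in litter 6 was -1.40, with a gap of 0.631 of the range, while the other 5 litters lay between 0.07 and 0.94. The sum of the neutrophil markers was higher, and Ddx3y, Eif2s3y and Kdm5d, which are Y-linked, were lower, in litters 5 and 6 than in litters 1 to 4, and their part in these values was not tested.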

How the results depend on the processing

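Of 169 values of single members under the alternatives, 163 kept their direction. The others were Cd36 (0.01), which was -0.0013 with median-ratio rescaling, -0.094 to 0.092 with 1 litter left out (below 0 without litter 3, and -0.0069 without litter 6) and -0.0016 without litters 5 and 6, Scarb1 (0.06), which was -0.051 to 0.17 with 1 litter left out (below 0 without litter 2), and Stab1 (0.12), which was -0.017 without litters 5 and 6. Members at an unadjusted p under 0.05 for genotype (0 in the reported fit) numbered 1 with the Y-linked covariate (Msr1), 0 to 1 with 1 litter left out (Marco without litter 6) and 2 without litters 5 and 6 (Msr1 and Marco), in fits where 7.44%, 5.82% (without litter 6) and 7.36% of all genes had one. The adjusted p of a member was at least 0.554 in every fit. The median log2 fold change of the members was -0.00 to 0.06 with 1 litter left out.

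Litter was called for 4 members and 837 genes with the Y-linked covariate, for 0 members and 19 genes without litters 5 and 6, and for 6 to 8 members and 1002 to 4092 genes with 1 litter left out, against 9 and 3938. Without the replicate block for litter, 0 members, 40 higher and 35 lower genes and 0 genes of the uptake lists had an unadjusted p under 0.05 for genotype, against 336, 385 and 7 with the block. No filter gave 533 higher genes, and leaving out 1 litter gave 196 to 399 higher and 217 to 484 lower genes and 2 to 9 uptake genes. Rescaling to the sum of the table gave 460 higher and 256 lower genes (64.2% higher against 46.6%, with a shift of 0.02 in the median of all genes) and 4 uptake genes, limma without trend 3 uptake genes, and leaving out litters 5 and 6 gave 3. With 1 litter left out, 0 to 1 genes had an adjusted p under 0.05 for genotype, the 1 being Igkv1-88 without litter 3, named after its value was seen. The causes were not tested. The depth of each library is not in the table, which limits what can be said of Olr1, at 0.888 to 5.28 TPM.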
